A study of Mus musculus with 4 samples.

Results

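Trim63, Fbxo32 and Mstn are 3 genes of skeletal muscle wasting. They were taken as every entry of the authors' deposited table of Bex against Ctrl at 1.5-fold or more whose gene symbol is exactly one of these names. Each name had 1 transcript cluster, the set of probes that stands for a gene on the array, so there were 3 clusters, of 559 in that table and 35557 on the array. The table thus holds 1.57% of all clusters, 0.976% as higher and 0.596% as lower. Values are on the log2 scale. They came from 4 arrays of RNA from C2C12, an established line of mouse myoblasts, the muscle precursor cells that fuse into myotubes. In both groups the cells were grown to confluence and then kept for 48 h in a basal adipogenesis medium, alone in the Ctrl group and with the compound labelled Bex at 10 µM in the other group. Each group had 2 arrays. The labels do not spell out Bex; as background on the study, it stands for bexarotene, which activates retinoid X receptors. The labels speak of 2 batches of cells without saying which array came from which. What separates arrays of a group, or the groups themselves, may therefore be partly technical or due to batch. Whether the 2 arrays of a group came from separate batches cannot be told. Other components of the medium were not given in the sources used here.

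Muscle mass reflects the balance between making and breaking down protein. Trim63, also called MuRF1, is a RING-type ubiquitin ligase that sits on the sarcomere, binds titin and marks myosin and other thick filament proteins for the proteasome. Fbxo32, also called atrogin-1 or MAFbx, is the F-box subunit that chooses substrates for a cullin-based ligase, among them the myogenic factor MyoD and the translation factor eIF3f. Mstn encodes myostatin, a secreted protein of the TGF-beta family that limits muscle growth through activin type II receptors and SMAD proteins. In wasting muscle both ligases are known to be switched on by FOXO transcription factors, which AKT holds back when insulin or IGF1 is present, and glucocorticoids raise both.

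The promoters of Trim63 and Mstn are shown because FOXO factors and the glucocorticoid receptor are known regulators of this group of genes. The sequences are from RefSeq, build GRCm38.p6, which held 2 of the 3 genes; Fbxo32 is named only. Each runs 5′ to 3′ on the plus strand from 250 bases before the annotated start to 50 bases from the start on, so its last 50 bases lie in the first exon. The Trim63 window is chr4:134314870-134315169 and the Mstn window is chr1:53061390-53061689. Capitals mark matches, on either strand, to a FOXO core (GTAAACA), a glucocorticoid receptor half-site (TGTTCT), an E-box (CANNTG, bound by myogenic factors), a MEF2 box (CTANNNNTAG), a nuclear receptor half-site (AGGTCA) or a TATA box (TATAAA).
Trim63: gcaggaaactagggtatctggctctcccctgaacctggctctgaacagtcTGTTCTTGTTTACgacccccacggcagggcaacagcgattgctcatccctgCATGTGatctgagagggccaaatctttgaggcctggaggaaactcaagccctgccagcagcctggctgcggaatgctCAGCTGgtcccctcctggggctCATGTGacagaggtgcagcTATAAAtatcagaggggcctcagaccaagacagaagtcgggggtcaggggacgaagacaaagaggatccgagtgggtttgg
Mstn: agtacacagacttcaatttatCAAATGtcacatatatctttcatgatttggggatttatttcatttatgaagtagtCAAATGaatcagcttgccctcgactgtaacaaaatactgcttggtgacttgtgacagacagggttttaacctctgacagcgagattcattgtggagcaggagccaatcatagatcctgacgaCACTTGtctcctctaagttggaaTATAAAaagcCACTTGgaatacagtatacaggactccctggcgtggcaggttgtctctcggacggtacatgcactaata

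In the Trim63 window a glucocorticoid receptor half-site at -200 to -195 was followed without a gap by a FOXO core, read on the minus strand, at -194 to -188, counted from the annotated start. It also held 3 E-boxes, of which 1 had the letters CAGCTG, and a TATA box at -31 to -26. The Mstn window held 4 E-boxes, with their first bases at -229, -174, -52 and -19, and a TATA box at -29 to -24, with no match to the FOXO core or the half-site. Neither window held a MEF2 box or a nuclear receptor half-site, and so neither held a direct repeat of the latter 1 base apart. Among 32851 RefSeq promoter windows of the same length, a FOXO core was found in 3.65%, a glucocorticoid receptor half-site in 19.0%, an E-box in 72.3%, CAGCTG in 16.3% and a TATA box in 13.6%. The MEF2 box was in 3.69%, the nuclear receptor half-site in 16.3% and its direct repeat in 0.0396%. CAGCTG is itself an E-box, so these matches overlap. Only exact matches were counted. The letters TGAACA, 1 letter off the reverse of the half-site (AGAACA), lie 3 bases before the Trim63 half-site and were not marked. The share of 19.0% is for the half-site alone. A match to letters is a description and does not show binding.

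**Figure D1:**
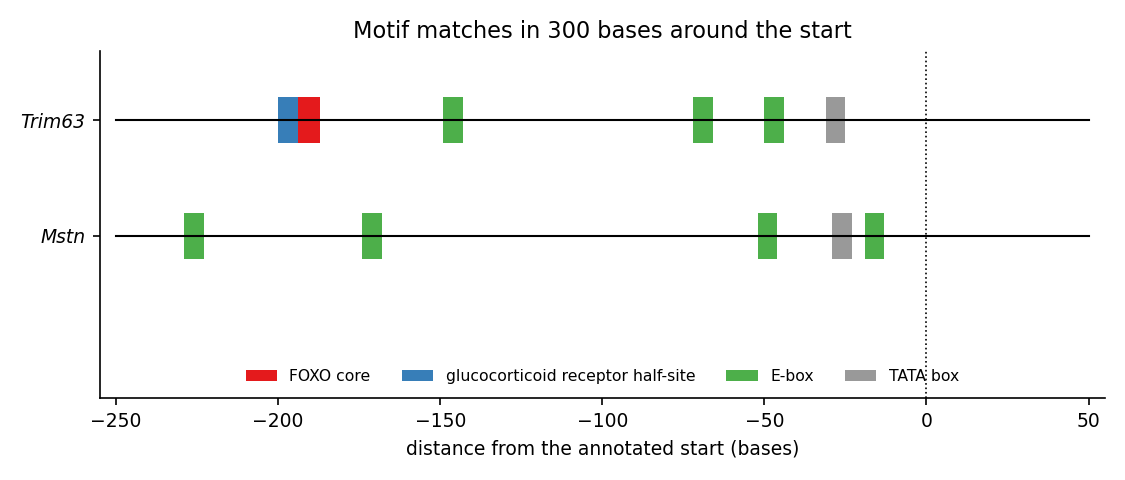
Matches to 4 motifs (coloured blocks) in the promoter windows of Trim63 and Mstn, by distance from the annotated start in bases. The half-site and the FOXO core of Trim63 touch at -200 to -188, and the TATA boxes of both genes lie close to each other in position, at -31 and -29.

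The 3 genes did not share a direction. Trim63 and Mstn were higher with Bex, by 1.73-fold and 2.11-fold, and Fbxo32 was 1.67-fold lower. The table that named them was selected by the authors on this same contrast of the series. Its fold changes are 1.51 or more in size, and the authors' own p-values are at most 0.049968. The values of Trim63, Fbxo32 and Mstn are therefore given as a description, without a test. The SEs and 95% intervals printed with them do not allow for that selection and are not to be read as a test.

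Of the pair of ubiquitin ligases, Trim63 (cluster 10508953) had log2 values of 6.33 and 6.52 in Ctrl and 7.26 and 7.18 with Bex. Both Bex arrays lay above both Ctrl arrays, and the arrays within a group differed by 0.18 (Ctrl) and 0.079 (Bex). The mean difference was 0.79 ± 0.10 (log2, moderated SE from limma, n = 2 per group, 95% interval 0.50 to 1.09). Setting each Bex array against each Ctrl array gave 1.58-fold to 1.89-fold higher values.

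Fbxo32 (cluster 10428796) had log2 values of 10.00 and 9.78 in Ctrl and 9.18 and 9.13 with Bex. Here both Bex arrays lay below both Ctrl arrays. The Bex arrays differed from each other by only 0.047 and the Ctrl arrays by 0.22. The mean difference was -0.74 ± 0.11 (log2, moderated SE, n = 2 per group, 95% interval -1.05 to -0.42), and single pairs of arrays gave 1.52-fold to 1.82-fold lower values.

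Mstn (cluster 10346250), the secreted growth inhibitor, had log2 values of 4.70 and 4.89 in Ctrl and 6.09 and 5.64 with Bex. Both Bex arrays were again the higher ones, but they differed from each other by 0.45, the widest gap within a group among the 3 genes. The mean difference was 1.07 ± 0.19 (log2, moderated SE, n = 2 per group, 95% interval 0.53 to 1.61). Single pairs of arrays gave 1.69-fold to 2.62-fold higher values. The Ctrl values lie close above 4.57, the mean below which the dimmest 30% of clusters fall, and nothing in the files shows that they exceed the array background. The fold change of Mstn is therefore uncertain.

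**Figure D2:**
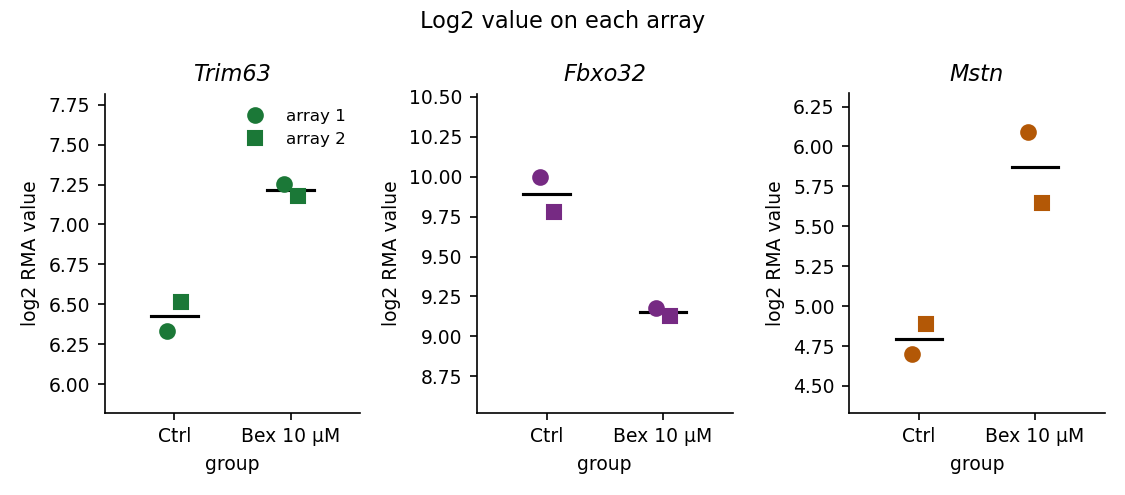
Log2 value of Trim63, Fbxo32 and Mstn on each of the 4 arrays (points, with circles for replicate 1 and squares for replicate 2) and the group mean (bar); each panel spans 2 log2 units around its own mean. The groups do not overlap for any of the genes, Fbxo32 runs opposite to the others, and the Bex values of Mstn, 6.09 and 5.64, are spread most widely.

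Read against the whole array, such separation was common. Both Bex arrays lay above both Ctrl arrays in 20.6% of the 35557 clusters and below them in 24.2%. A difference of 1.5-fold or more was found in 3.62% of clusters on the higher side and 2.82% on the lower side. A difference as large as that of Mstn, or larger, was found on the higher side in 0.917% of clusters, and one as large as that of Trim63 in 2.05%. On the lower side 1.73% of clusters differed as much as Fbxo32. Without the 6669 clusters whose IDs lie below all IDs of the authors' table and which the files do not describe, an alternative chosen after seeing the data, these last 3 shares were 0.471% for Mstn, 1.11% for Trim63 and 0.640% for Fbxo32. All these shares use the contrast that chose the genes and describe where they lie in it.

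The p-value behind the authors' table also depends on the spread within groups, so the following values are a description too. For Trim63 the SD within groups was 0.0988, against a median of 0.117 among the 1897 clusters within 0.25 log2 units of its mean level. For Fbxo32 it was 0.110 against 0.0710 among 1126 clusters of like level, wider than in 74.2% of them. For Mstn it was 0.242 against 0.132 among 3000 clusters, wider than in 78.5% of them. The spread of Trim63 was wider than that of 41.3% of clusters of its level.

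**Figure D3:**
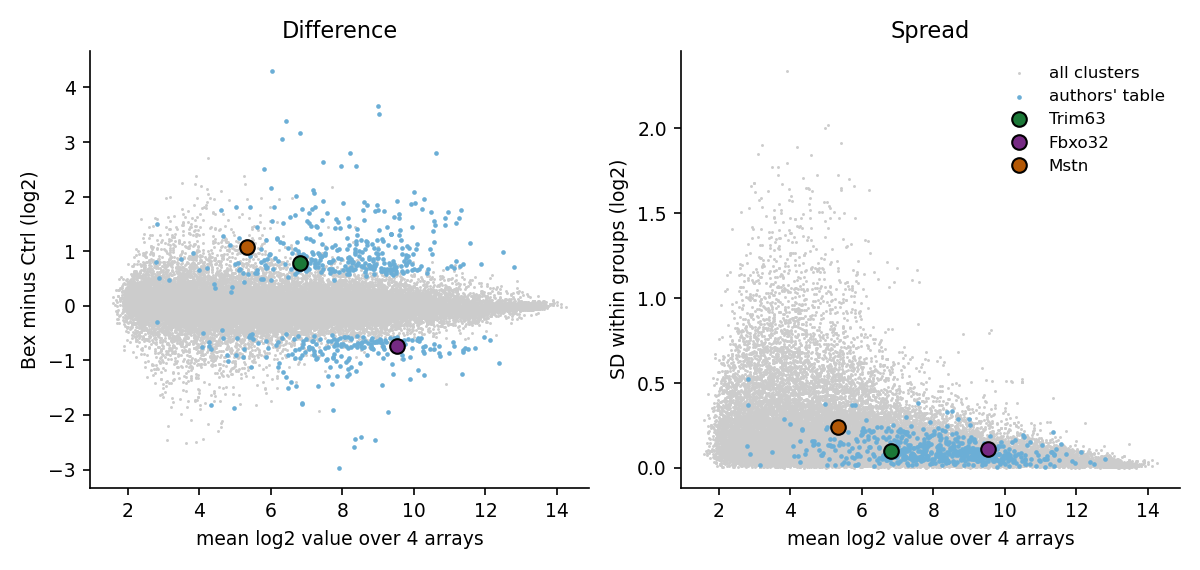
Difference Bex minus Ctrl (left, log2) and SD within groups (right, log2) of each cluster against its mean log2 value over 4 arrays, with clusters of the authors' table in blue and the 3 genes as large points. Mstn lies at a low level where replicate SDs are wide, and Fbxo32 at a high level where most SDs are small.

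In the authors' deposited table the signed fold change was 1.92 for Trim63, -1.73 for Fbxo32 and 2.33 for Mstn. The group averages of that table are not the means of the array values used here (see the closing part on processing). Ordered by fold change in that table, Mstn was number 95 and Trim63 number 154 of 347 higher clusters, and Fbxo32 was number 96 of 212 lower clusters. For Trim63, Fbxo32 and Mstn the authors' deposited table gives FDR values of 0.350, 0.375 and 0.424. Just inside the cutoff of that table, by the authors' fold change, were Pnpla8 and Pck2 at 1.51 and Matn2 and Ly6a at -1.51. In the array values Pnpla8 and Ly6a differed by only 1.49-fold, and Pck2 and Matn2 by 1.51-fold and 1.53-fold. The authors' fold change and the array values thus do not place clusters alike at the cutoff. Among clusters that the authors' table leaves out, with the 6669 low IDs set aside, those nearest to the cutoff from below differed by 0.58 and -0.58 in the value table, and 406 differed by 1.5-fold or more.

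Limma's test over all clusters called 0 of 35557 at an adjusted p of 0.05 (0% in either direction), and 4189 clusters had an unadjusted p under 0.05. When the prior variance was allowed to vary with mean level (the variance-trend fit), it called 427 clusters, or 1.20%, with 0.762% higher and 0.439% lower. That count fell to 0 when either Ctrl array was left out, to 23 without the first Bex array and to 32 without the second. The counts below of genes that passed refer to the variance-trend fit on all 4 arrays, and in limma's main test 0 genes of any list passed. The SEs printed beside genes are those of limma's main fit. The variance-trend fit has other SEs, so a printed SE does not tell why a gene passed or did not. Only genes listed in the authors' table could be named, and of its 536 genes with a single symbol 62.7% were higher and 56.2% passed. These lists are read against those shares. Genes of a list that the table does not hold were not analysed here.

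On the myostatin side, 8 of 42 listed genes of myostatin and activin signalling were named besides Mstn, 5 higher and 3 lower, of which 3 and 2 passed. With Mstn, the median difference of the 9 genes was 0.78 (log2), against 0.67 over the 536 genes. Over all clusters it was -0.01, but named genes had to pass the authors' cutoff, so a median away from 0 was fixed by that selection. Such a median, here and for the lists below, mostly restates how many genes were higher or lower. Among the ligands, Inhba, the subunit of activin A, differed by 1.12 ± 0.22 (log2, SE) without passing. Gdf15, a stress-induced member of the TGF-beta family, was 1.72-fold higher (0.78 ± 0.11) and passed, whereas Bmp4, a bone morphogenetic protein, was 2.63-fold lower (log2 difference -1.39 ± 0.08) and passed. Activin A, like myostatin, signals through activin type II receptors.

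Genes whose products act on such ligands outside the cell were split. Tll1, a tolloid-like protease of the family that frees myostatin from its propeptide, was 2.36-fold higher (1.24 ± 0.12). Its Ctrl values, 4.61 and 4.38, lie on either side of 4.57, the mean below which the dimmest 30% of clusters fall. The fold change of Tll1 is therefore uncertain too. The latent TGF-beta binding protein genes went opposite ways, with Ltbp3 at 0.67 ± 0.09 and Ltbp1 at -0.64 ± 0.09 (log2), and these 3 genes passed. Dcn, decorin, a small proteoglycan that can bind myostatin, differed by -0.78 ± 0.10 and did not pass. Id2, an inhibitor of myogenic factors that was on the same list, differed by 0.95 ± 0.14 without passing.

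On the side of the ligases, Trim63 and Fbxo32 were the only named genes of 27 listed ligases, relatives and cofactors. No gene of 62 listed for the proteasome, ubiquitin and autophagy was named in the authors' table, which holds only clusters past its cutoffs. Of 27 listed FOXO factors and their targets, 5 were named, 3 higher and 2 lower, and all 5 passed. Lpl, the lipoprotein lipase, was 2.78-fold higher (1.47 ± 0.08), Angptl4, its secreted inhibitor, 1.93-fold (0.95 ± 0.09) and Ddit4, an inhibitor of mTOR signalling, 1.88-fold (0.91 ± 0.10). Sesn1, a stress-responsive inhibitor of mTOR signalling, was 1.84-fold lower (log2 difference -0.88 ± 0.11) and Txnip, an inhibitor of thioredoxin, 1.59-fold lower (-0.67 ± 0.08). Lpl and Angptl4 are also known targets of PPARs.

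Of 31 genes listed for IGF1, insulin and AKT signalling, 4 were named. Igf2, a growth factor that myoblasts secrete as they differentiate, was 1.65-fold higher (0.72 ± 0.10), and among its binding proteins Igfbp4 was 1.63-fold higher (0.70 ± 0.09) and Igfbp3 1.91-fold lower (log2 difference -0.94 ± 0.09). These 3 passed. Sgk1, a kinase related to AKT that also restrains FOXO factors, differed by -0.68 ± 0.12 and did not pass.

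Among genes that respond to glucocorticoids, 11 of 28 listed were named, 3 higher and 8 lower, of which 3 and 6 passed. The median difference was -0.77 (log2), against 0.67 over the 536 genes, and mostly restates that count. Fkbp5, a chaperone of the glucocorticoid receptor and one of its common targets, was 2.08-fold lower (log2 difference -1.06 ± 0.11). Tsc22d3, also known as GILZ, was 1.82-fold lower (-0.87 ± 0.09), and Glul, the glutamine synthetase of wasting muscle, 1.71-fold lower (-0.77 ± 0.10). Errfi1, a feedback inhibitor of the EGF receptor, was 2.42-fold lower (-1.27 ± 0.09). The acute-phase genes Orm1 (-2.46 ± 0.11) and Saa3 (-2.40 ± 0.25) had the widest differences of this list, and each has close paralogues that its probes may also detect. Sgk1 and Cebpd, a transcription factor (-0.60 ± 0.10), did not pass. The higher genes were Tgm2, a transglutaminase (1.12 ± 0.14), Angptl4 and Ddit4, the last 2 shared with the FOXO list. Sgk1 is shared with the AKT list and Saa3 with the inflammatory list.

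Reported substrates and partners of the ligases were named in 10 of 32 cases, all 10 higher, and 7 passed, with a median difference of 1.03. Ttn, titin, the giant spring protein to which Trim63 binds, was 1.97-fold higher (0.98 ± 0.09). Myl1, a myosin light chain, was 2.23-fold higher (1.15 ± 0.13), Neb, nebulin of the thin filament, 2.12-fold (1.08 ± 0.09) and Tnni1, the slow troponin I, 1.70-fold (0.77 ± 0.09). The myosin heavy chains Myh8 (2.06 ± 0.17), Myh1 (2.00 ± 0.09) and Myh4 (1.80 ± 0.18) also passed, though these near-identical genes can share probe signal. Myh3, Mybpc2, which encodes a myosin-binding protein, and Ckm, the muscle creatine kinase, differed by 0.96 ± 0.16, 0.83 ± 0.08 and 0.72 ± 0.14 and did not pass. Transcript levels do not show how much of these proteins was present or degraded.

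Trim63, Fbxo32 and Mstn are all genes of skeletal muscle, so markers of myotubes are given beside them. Of 9 listed myotube markers 5 were named (Myh8, Ttn, Myh3, Tnni1 and Ckm), all 5 of them higher and all 5 already counted among the substrates and partners, so these are the same values and not a further result. Their summed linear signal was 4516 and 4078 in Ctrl and 8296 and 7253 with Bex. Of 4 myoblast markers only Pax7, a satellite cell factor, was named, with a linear signal of 811 and 764 in Ctrl and 512 and 528 with Bex. The part of these shifts in the differences of Trim63, Fbxo32 and Mstn was not tested. In RNA from whole dishes, more cells of a kind and more RNA per cell cannot be told apart.

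Markers of other cell types were named in few cases. The 2 named adipocyte markers of 5, Fabp4 and Plin1, summed to 193 and 164 in Ctrl and 772 and 932 with Bex. The 3 fibroblast markers of 5 (Cd34, Dcn and Ly6a) summed to 5213 and 5199 in Ctrl and 3384 and 3524 with Bex, and Ly6a alone made up 94.2% of the Ctrl signal. The 2 smooth muscle markers of 5, Tagln and Actg2, summed to 832 and 760 in Ctrl and 426 and 431 with Bex, with 86.4% of the Ctrl signal from Actg2, and the single macrophage marker of 5, Cd14, stood at 81.8 and 107 against 173 and 176. Markers could be named only through the authors' table, so the separation of the groups in these sums follows from how that table was selected. The part of these markers in the differences of the 3 genes was not tested.

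A further pair of lists covers denervation and inflammation, which are known to set off wasting. Of 20 genes listed for denervation and the neuromuscular junction, 3 were named, all 3 higher. These are genes of stressed muscle or of the Z-disc, and none of the 3 encodes a part of the junction itself. Ankrd2 and Ankrd1, ankyrin repeat proteins of stressed muscle that bind titin, were 3.77-fold (1.91 ± 0.09) and 1.71-fold higher (0.77 ± 0.08) and passed. Csrp3, a protein of the Z-disc, differed by 0.63 ± 0.11 and did not pass. Of 29 inflammatory genes 5 were named, 2 higher and 3 lower. Il1r1, the interleukin 1 receptor, was 1.72-fold lower (log2 difference -0.78 ± 0.09), the chemokine gene Cxcl5 1.55-fold lower (-0.63 ± 0.09), and Ptgs2, the inducible cyclooxygenase, 2.61-fold higher (1.38 ± 0.14). These 3 passed, as did Saa3, and Cd14, a co-receptor for bacterial lipopolysaccharide, differed by 0.90 ± 0.16 without passing.

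**Figure D4:**
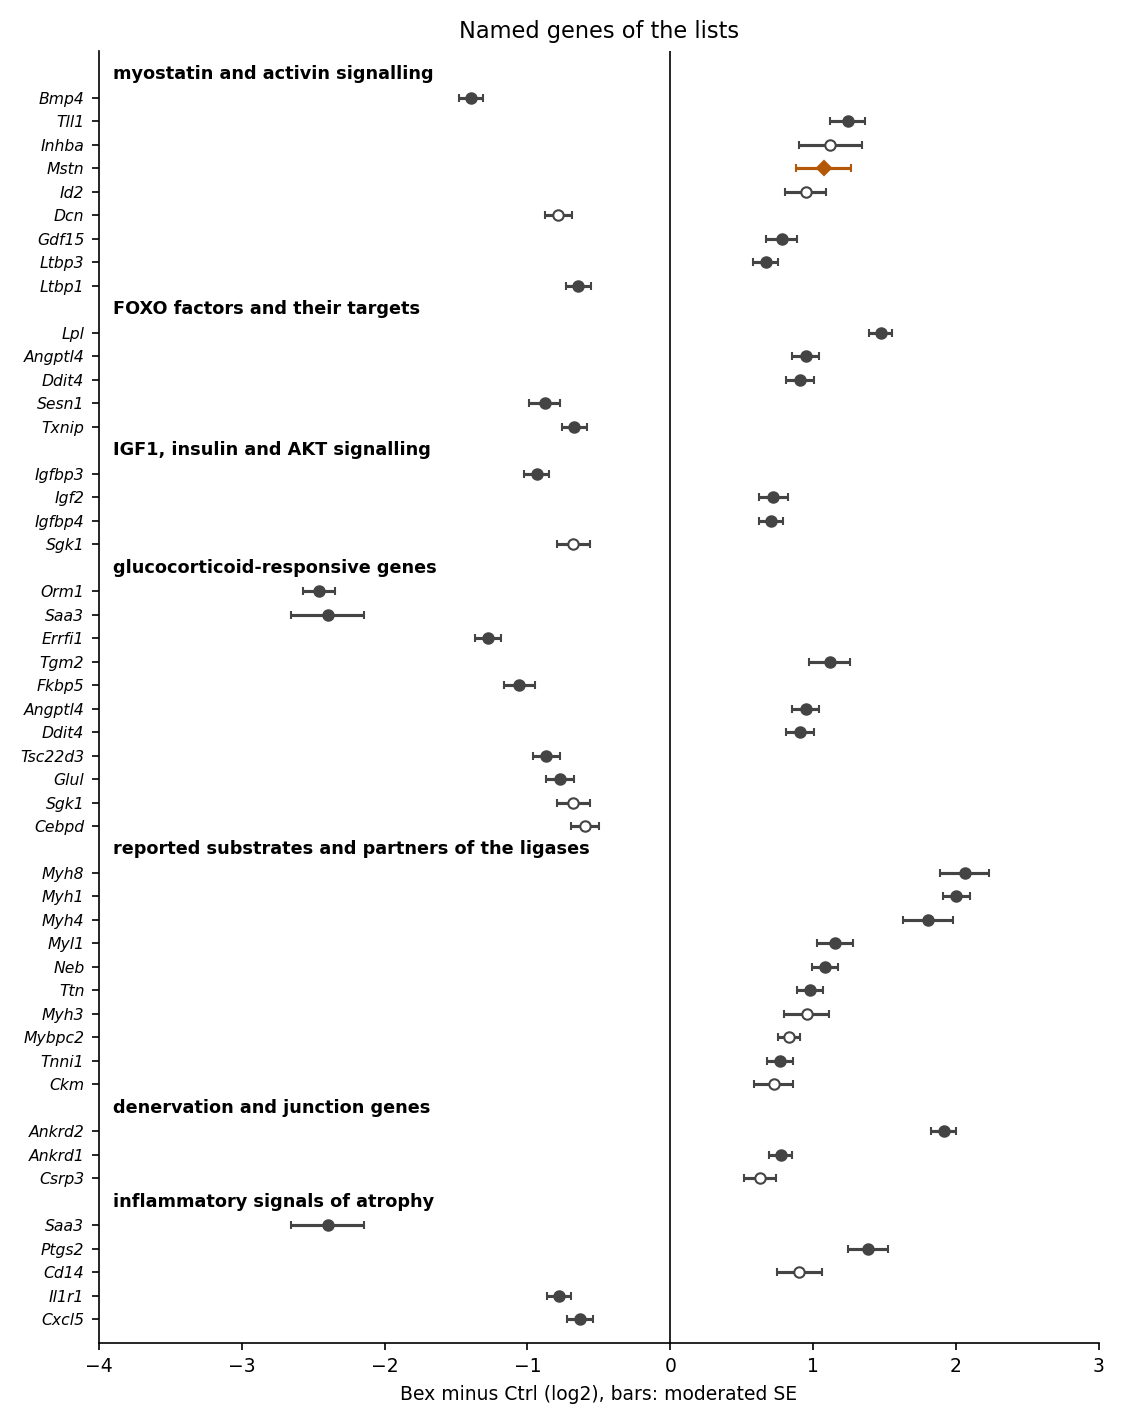
Bex minus Ctrl (log2, points) of the genes of 7 lists that the authors' table names. Bars give the moderated SE of limma's main fit. Filled points passed the variance-trend fit, which has other SEs, at an adjusted p of 0.05, and open points did not. The diamond is Mstn, described without a test and drawn filled whatever the fit gave. All 10 substrates and partners lie right of 0, and 8 of 11 glucocorticoid-responsive genes lie left of it.

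The named genes whose 4 values, each centred on its own mean, lay nearest to those of each gene were also found. Nearest to Trim63 were Mknk2, a kinase of a translation factor, at a Euclidean distance of 0.0537 log2 units over 4 arrays, Ryr1, the calcium release channel of muscle, at 0.0550, and Lgr4, a receptor for R-spondins, at 0.0592. Mknk2 read 8.88 and 9.05 in Ctrl and 9.76 and 9.66 with Bex. Nearest to Fbxo32 were the chemokine gene Cxcl12 at 0.0531, Ssxb10 at 0.0801 and Thbs1, thrombospondin 1, at 0.0964. Ssxb10 read 4.56 and 4.36 in Ctrl and 3.78 and 3.62 with Bex, all under the dim limit of 4.57, so its place is uncertain. Cxcl12 read 8.60 and 8.36 in Ctrl and 7.73 and 7.75 with Bex. Nearest to Mstn was Sntb1, a syntrophin of the dystrophin complex, at 0.0567, followed by the cytokine gene Il33 at 0.135 and Lgals3bp at 0.137. Sntb1 read 7.74 and 7.92 in Ctrl and 9.19 and 8.73 with Bex, with the gap between Bex arrays that Mstn shows. With 4 arrays in 2 groups, such likeness mostly reflects the difference between groups.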

How the data were processed

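The measurements were log2 values that the authors deposited for 4 arrays. They were derived by RMA in Expression Console from a core-exon analysis, per the labels. RMA brings all arrays to 1 distribution, and a change in most transcripts at once would be hidden. Per the submitters' processing notes, a second deposited table was made with Transcriptome Analysis Console. Per the file headers it holds log2 averages of each group, p-values with their FDR, and a linear fold change, treated here as a score because its sign marks direction (negative where Ctrl is higher). The headers call the averages bi-weight and the groups CK+Bex and CK, which were taken here as Bex and Ctrl. Software versions, genome build and annotation release: not given in the sources used here.

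Bex minus Ctrl was fitted over all 35557 clusters with limma 3.58.1 in R 4.3.3, without filter or covariates, with Benjamini-Hochberg adjustment at 0.05, and was tested on simulated data. No array was a copy of another (30 to 58 identical values per pair). Pearson's r between arrays, across clusters, was 0.986 to 0.991, and array medians were 5.76 to 5.80. The number of arrays limits the precision of every value. Replicate numbers were not taken to pair the arrays (see the closing part on processing). Clusters were named only through the authors' table, where 545 of 559 had a single symbol; for genes with several clusters the one of highest mean was taken. The 3 genes, the lists and the rules for named genes were chosen with earlier results of these data known. Up to 8 genes per list were to be named in falling order of difference, and further ones are named without that rule; 2 list genes are not reported here and are left out of the counts of the myostatin and denervation lists; the counts of the other lists are not affected. Of the genes nearest in pattern, 3 per gene were named. Alternatives were a replicate block, a variance trend, other normalizations, a filter on dim clusters, other thresholds, the authors' averages and each array left out. Python 3.11.15 with pandas 2.3.3, numpy 2.4.6 and matplotlib 3.10.9 was used.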

Additional observations from a re-analysis of the deposited data

How the results depend on the processing

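The differences of Trim63, Fbxo32 and Mstn kept their direction under every alternative run, namely a replicate block, a median shift, a further quantile normalization, the authors' averages and each array left out. Without 1 array the log2 difference ran from 0.70 to 0.88 for Trim63, from -0.84 to -0.63 for Fbxo32 and from 0.85 to 1.30 for Mstn. As both groups are separated on these arrays by the choice of the genes, the kept direction is no sign of stability. With the authors' deposited averages the difference of Trim63 was 0.94 in place of 0.79, a shift larger than its SD within groups. The averages deposited for Trim63 and Fbxo32 with Bex, 7.39 and 9.03, lay outside the values of both arrays. So did that of Mstn in Ctrl, 4.69, just below its arrays. The other average of each gene lay between its arrays. The deposited averages are therefore not means of the array values used here, and the cause was not tested. The count of 0 clusters past limma's test became 427 with a variance trend, 105 without the dimmest 30% of clusters, 80 at a threshold of 0.1 and 2292 at 1.5-fold with no test. It was 0 with a replicate block, a median shift and a further quantile normalization, and with each array left out, where a lone array is assumed to vary like the other group (range 0 to 0). The variance-trend count was 0 without either Ctrl array, 23 without Bex array 1 and 32 without Bex array 2, an alternative chosen after seeing the data. With the replicate number as a block the count was 0 and 3782 clusters had an unadjusted p under 0.05, against 4189 without it. Deviations of same-numbered arrays from their group means correlated at 0.00786 over all clusters and at 0.0450 without the 6669 clusters of low ID. The numbers were therefore not taken to pair the arrays, though these values do not show that the arrays were unpaired. With 2 arrays per group and Ctrl values of Mstn near the dim limit of 4.57, its level without Bex is the least certain among those of Trim63, Fbxo32 and Mstn. Leaving out the 6669 clusters of low ID lowered the share of clusters that differed as much as each gene to 0.471% (Mstn), 1.11% (Trim63) and 0.640% (Fbxo32).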
